A study of Drosophila melanogaster and Nicrophorus vespilloides with 16 samples.

Results

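The rotary ATPases of Drosophila melanogaster were followed through the H3K4me3 summits at their genes. Members were all protein-coding genes in the RefSeq gene table (Release 6) whose symbol begins with ATPsyn or Vha, on chromosome arms X, 2L, 2R, 3L, 3R and 4. The rule found 48 of 13922 protein-coding genes, 15 of the ATP synthase and 33 of the vacuolar ATPase (V-ATPase). They were divided into 25 main subunit genes, taken as the widely used gene of each subunit, and 23 paralogs, which are further copies of a subunit and include tissue-restricted ones. The main class includes the accessory subunit gene VhaAC45.

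ATP synthase sits in the inner mitochondrial membrane, where protons flowing through the Fo ring turn a central stalk inside the F1 head and drive the making of ATP. The V-ATPase is built on the same plan and runs the other way: its V1 head breaks down ATP and its V0 ring pumps protons into lysosomes, endosomes and, in insect epithelia, across the cell surface. Flies carry several copies of many subunits, and much published expression work places a number of the extra copies in the testis or in single tissues. H3K4me3, trimethylation of lysine 4 of histone H3, lies over the first nucleosomes of active genes.

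Chromatin came from 4 pools of 30 whole third-instar larvae of the Oregon-R strain, reared at 22 °C and not otherwise treated, and was immunoprecipitated with an H3K4me3 antibody on a solid-state filter (Chromatrap). The labels give no sex of the larvae, and the 4 matching fly inputs and the beetle samples were not used here. Each pool gave a list of peak summits, the 1 bp positions of highest enrichment, with 3518, 4969, 5236 and 5313 summits in replicates 1 to 4 and median scores from 5.97 to 24.7. Read depth is unknown, and a summit that is missing from a list may be a missed peak. Scores grow with depth, so each was replaced by its percentile among all summits of its own replicate. The lists differ in length, so a summit of the same rank from the top has a lower percentile in replicate 1, the shortest list. In whole larvae, a mark in few cells and a weak mark in many cannot be told apart.

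Every main subunit gene had a summit within 1 kb of a gene end in at least 3 of 4 replicates, and most of the paralogs had none. By this call all 25 main genes were called and 8 of 23 paralogs (34.8%), against 6107 of all 13922 protein-coding genes, a background of 43.9%. In all 4 replicates the numbers were 23 main genes and 8 paralogs, with a background of 33.7%. The other 15 paralogs had no summit within 1 kb in any replicate, as had 49.9% of all genes. A summit near a gene can belong to a neighbour, so a stricter own call asked that the summit also lie inside the gene. The own call took 24 of 25 main genes and 2 of 23 paralogs, against a background of 31.1% of all genes. An own summit in all 4 replicates was found at 17 main genes and the same 2 paralogs, with a background of 18.8%. No own summit in any replicate was found at 21 paralogs and no main gene, with a background of 58.9%. Thus 1 main gene and 6 paralogs owed their first call to summits outside the gene, as did 12.8% of all genes.

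The classes stood apart in each replicate. A summit inside the gene was found at 21, 23, 23 and 24 of the 25 main genes in replicates 1 to 4, a mean of 91.0% ± 5.03 (SD, n = 4). At the paralogs the number was 2 of 23 in every replicate, the same 2 genes each time, or 8.70%. Over all protein-coding genes the share was 24.2%, 33.1%, 35.5% and 35.0% in replicates 1 to 4. The main genes were thus high and the paralogs low in all 4 pools, with no overlap of their shares. With absence counted as 0, the median gene had a mean own-summit percentile of 66.2 among main genes and 0 among paralogs and among all genes. No p-value is given for the classes, since the members were chosen with earlier results of these data known.

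**Figure D1:**
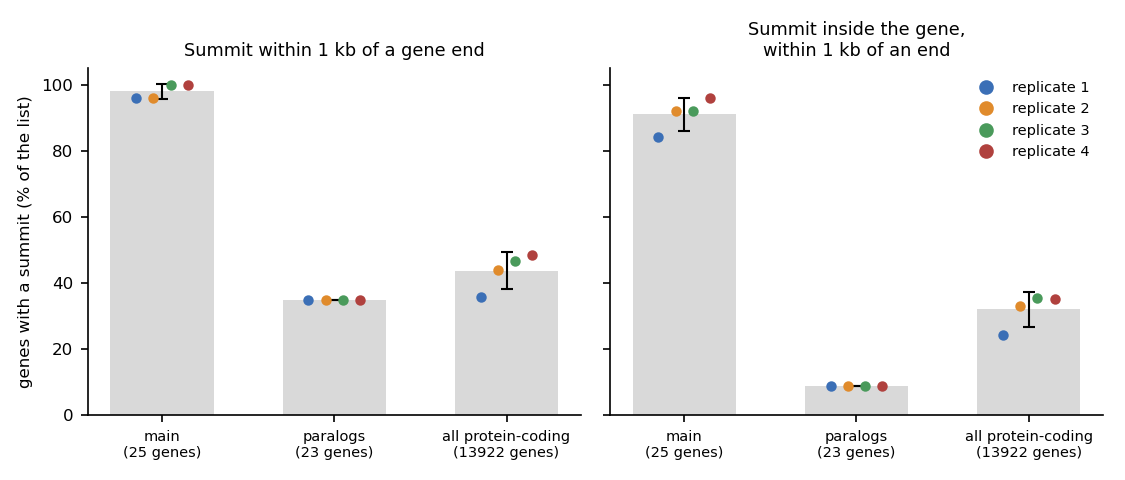
Share of genes (percent of each list) with an H3K4me3 summit within 1 kb of a gene end (left) or inside the gene and within 1 kb of an end (right), for main subunit genes, paralogs and all protein-coding genes. Grey bars are means, error bars SDs over the 4 fly replicates and points single replicates. The main genes lie above the other lists in every replicate, and the paralogs drop from 34.8% to 8.70% when summits outside the gene are left out.

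The F1 head of ATP synthase carried the mark, with its own summit on the catalytic gene among the weaker ones. ATPsynbeta, on chromosome 4 at 1031484 to 1034917, encodes the subunit where ATP is made. Its own summit was at percentiles 82.5, 22.3 and 35.0 in replicates 2 to 4 and was absent in replicate 1. A stronger summit lay 734 ± 25.9 bp (SD, n = 4) beyond its lower end, inside CG11076, at 87.6, 71.8, 92.9 and 94.2 in replicates 1 to 4. The neighbour's summit was thus the higher of the pair in 3 of 4 replicates. ATPsyngamma (3R, 29747704 to 29749163), the shaft that turns inside the head, had own summits at 48.6, 77.4, 94.1 and 97.1. ATPsyndelta (X, 10212970 to 10217393), at the foot of the same shaft, had own summits at 63.4, 44.6, 87.7 and 40.9. Both genes held a summit inside the gene in every replicate, and the order of the replicates differed between them.

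The peripheral stalk, which holds the head still while the ring turns, had own summits at all 4 of its genes. ATPsynCF6 (3R, 23355220 to 23356064) had the steadiest of these, at 70.4, 90.4, 90.2 and 83.7, a mean of 83.7 ± 9.42 (SD, n = 4). It shared its surroundings with Sec13, a coat protein of secretory vesicles, whose summit 699 ± 10.4 bp beyond the upper end of ATPsynCF6 was the higher one in 3 replicates. ATPsynB (3L, 9729999 to 9731224) was at 21.8, 96.3, 96.3 and 81.0. ATPsynO (3R, 15265591 to 15266690), the joint between stalk and head, was at 26.5, 90.6, 74.4 and 91.7. These last genes had low percentiles in replicate 1, the shortest list, and high ones in the other replicates. No summit of a neighbour lay within 1 kb of them. ATPsynD (3R, 19095000 to 19096271) had own summits at 88.9, 83.7 and 98.3 in replicates 1, 2 and 4. In replicate 3 its nearest summit lay 372 bp beyond the gene, inside mRpL55, a gene of the mitochondrial ribosome.

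The membrane part of ATP synthase had own summits at the ring gene and at the genes of the small subunits e, f and g, some of which pair the enzymes in the membrane. ATPsynC (3R, 31216145 to 31219630), the gene of the proton-carrying ring, had own summits at 84.8, 35.0, 93.5 and 78.8, near its upper end. A second summit lay beyond its lower end, inside CG15561, in all 4 replicates. ATPsynE (3R, 14326947 to 14327735) had own summits at 29.2, 92.7, 79.8 and 63.2. They lay near the middle of this gene of 789 bp, 354.5 ± 11.7 bp (SD, n = 4) from whichever end was nearer. ATPsynF (2R, 24599088 to 24599821) was at 21.1, 87.7 and 95.8 in replicates 1 to 3 and had no own summit in replicate 4. A summit inside CG3548, beyond the upper end of ATPsynF, stood at 85.8, 90.4, 97.9 and 84.1. It was the strongest summit near ATPsynF in all 4 replicates. ATPsynG (2L, 10975522 to 10976399) was at 54.1, 48.5, 87.4 and 98.3. It lay between abo and SCAR, which both held a summit within 1 kb of it in all 4 replicates, so that 3 separate summits fell in and around a gene of 878 bp.

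None of the 4 ATP synthase paralogs had a summit of its own. ATPsynCF6L (3L, 5011444 to 5012133), ATPsynGL (2L, 7747275 to 7747874) and ATPsynepsilonL (3R, 10121773 to 10122320) had no summit within 1 kb in any replicate. ATPsynbetaL (3L, 16097834 to 16100088), the copy of the catalytic subunit used in the male germline, was called through a summit 349.75 ± 23.9 bp (SD, n = 4) beyond its upper end. That summit lay inside IleRS-m, the mitochondrial isoleucyl-tRNA synthetase, at 58.5, 75.4, 37.7 and 30.4 in replicates 1 to 4. ATPsynbeta differed from its copy in that summits inside the gene occurred in 3 replicates, against none.

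**Figure D2:**
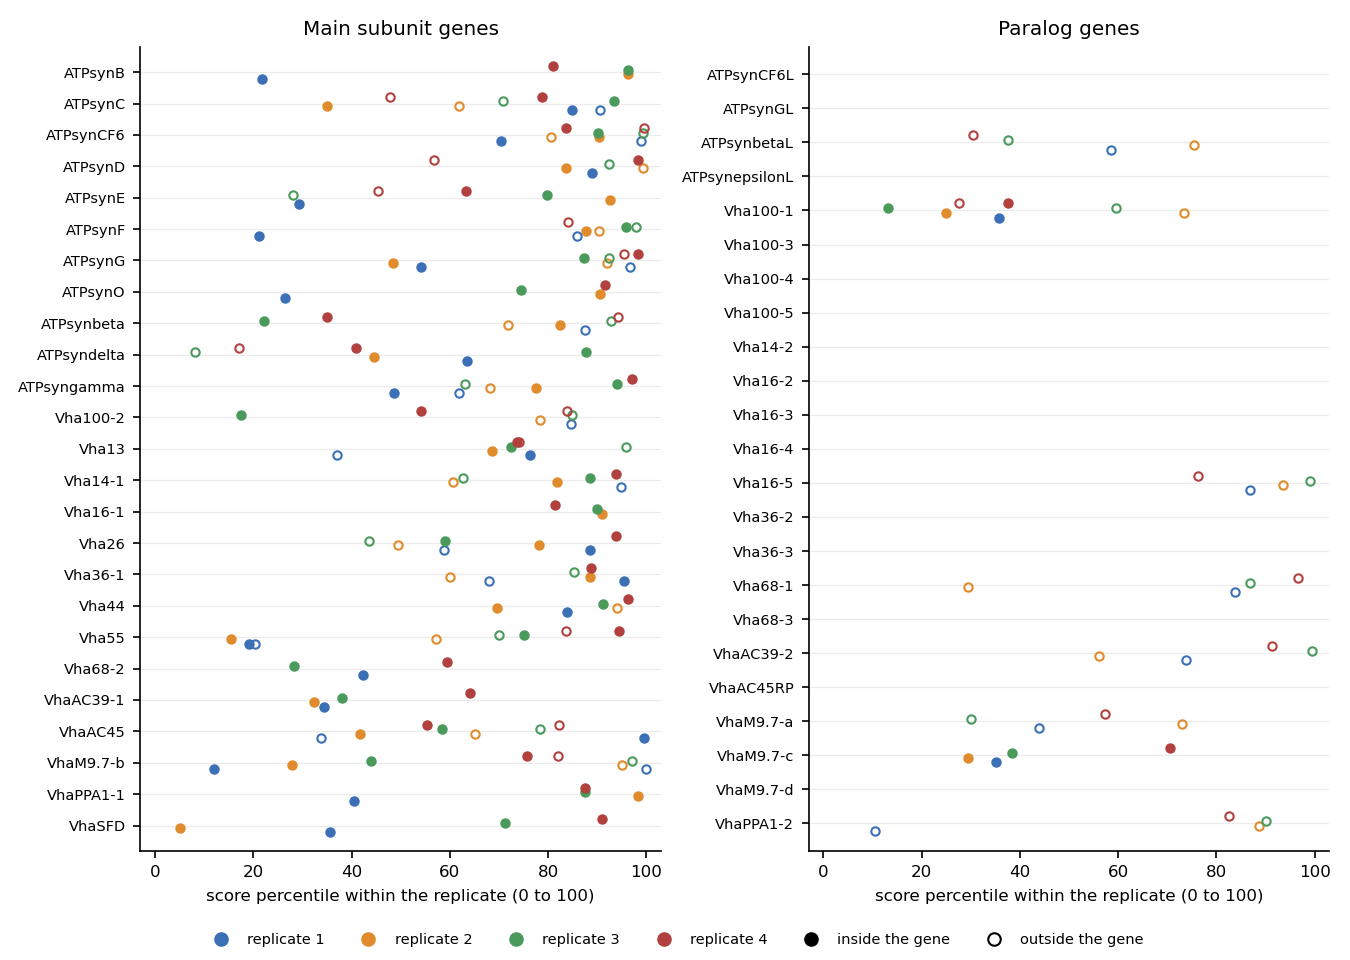
Score percentile within the replicate (0 to 100) of the strongest summit inside each gene (filled) and of the strongest summit outside it but within 1 kb of its ends (open), one colour per fly replicate. A gene with no point had no summit. All main genes have filled points, and among paralogs filled points occur at Vha100-1 and VhaM9.7-c.

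The V1 head of the V-ATPase had own summits at all 8 of its main genes, over a wide range of strength. Vha68-2 (2L, 12974322 to 12978607), the catalytic subunit A, was among the weaker, at 42.2, 28.3 and 59.4 in replicates 1, 3 and 4, with no summit in replicate 2. Vha55 (3R, 12623762 to 12627829), the partner subunit B, was at 19.0, 15.5, 75.1 and 94.5. Its replicates fell into a low and a high pair, and the summit of its neighbour Snx3 was present in all 4. Vha44 (2R, 16324813 to 16336637), subunit C, which leaves the complex when the pump is switched off, had the highest mean own-summit percentile of the 25 main genes, 85.2 ± 11.6 (SD, n = 4), from 83.8, 69.7, 91.1 and 96.3. These summits lay where Vha44 overlaps Hmgs, an enzyme of the mevalonate pathway, and cannot be given to one of the genes. Asking for a summit inside no other gene ended the call of Vha44.

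The stalk genes of V1 were high in most replicates. Vha26 (3R, 5591763 to 5595356), subunit E, was at 88.6, 78.2, 59.1 and 93.8. Vha13 (3R, 19643018 to 19644386), subunit G, was at 76.2, 68.6, 72.5 and 73.8, a mean of 72.8 ± 3.21 (SD, n = 4), the smallest spread among main genes. The central stalk genes Vha36-1 and Vha14-1 (both 2R) each lacked an own summit in 1 replicate. Vha36-1 (15541435 to 15542498), subunit D, was at 95.5, 88.6 and 88.7 in replicates 1, 2 and 4. In replicate 3 it had summits only in its neighbours CG8187 and eIF2Bgamma. Vha14-1 (15679426 to 15680084), subunit F, was at 81.9, 88.6 and 93.8 in replicates 2 to 4, and in replicate 1 its nearest summit lay inside Gmppa. For both genes the replicate without an own summit thus still had a summit within 1 kb. VhaSFD (2L, 16722883 to 16727826), the regulatory subunit H, varied widely between replicates, at 35.6, 5.10, 71.2 and 90.9.

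The V0 sector held both strong own summits and the main gene that failed the own call. Vha16-1 (2R, 6625242 to 6633090), the ring subunit c, had own summits at 91.1, 90.0 and 81.3 in replicates 2 to 4 and no summit within 1 kb in replicate 1. VhaPPA1-1 (3R, 14902330 to 14904061), the ring subunit c'', was at 40.5, 98.2, 87.5 and 87.4. Both ring genes were thus lowest in replicate 1. Among the 17 main genes with own summits in all 4 replicates, the lowest percentile fell in replicate 1 at 7 and in replicate 2 at 8. VhaAC39-1 (X, 3880748 to 3882967), subunit d, was lower and steadier, at 34.3, 32.4, 38.1 and 64.1, with no neighbour's summit within 1 kb. VhaM9.7-b (3L, 21539862 to 21541215), the small subunit e, had own summits at 12.0, 27.9, 43.9 and 75.6. Its neighbour COX8, a subunit of cytochrome c oxidase, held a summit 640.5 ± 45.4 bp away at 99.9, 95.0, 97.1 and 82.0. The near call of VhaM9.7-b was thus led by the neighbour in all 4 replicates. VhaAC45 (2R, 9207561 to 9209774), which encodes an accessory subunit, was at 99.5, 41.7, 58.3 and 55.3. A summit inside Gnptab, beyond the lower end of VhaAC45, was at 33.7, 65.0, 78.4 and 82.2 and was the higher one in 3 replicates.

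Vha100-2 (3R, 18390323 to 18399169), the widely used copy of subunit a through which protons pass, was called only by way of its neighbour. It overlaps Vti1b, a SNARE of endosomal fusion, whose summit 678.5 ± 16.2 bp beyond the upper end of Vha100-2 stood at 84.6, 78.4, 84.8 and 83.9. Inside Vha100-2 there was no summit in replicates 1 and 2, and one at 17.5 and 54.1 in replicates 3 and 4, again within the overlap with Vti1b. The summits at this gene therefore cannot be separated from those of Vti1b.

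Of the 19 V-ATPase paralogs, 12 had no summit within 1 kb in any replicate. These were Vha68-3, Vha36-2, Vha36-3, Vha14-2, Vha100-3, Vha100-4, Vha100-5, Vha16-2, Vha16-3, Vha16-4, VhaM9.7-d and VhaAC45RP. They include the copper-cell copy Vha100-4 of the midgut. Searching the whole gene did not add a call to any of them, and a window of 2000 bp added Vha36-2.

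Another 5 V-ATPase paralogs were called through neighbours alone, in all 4 replicates and with no summit of their own. Vha16-5 (2L, 10736319 to 10737043), a copy of the ring subunit, lay 483.5 ± 36.2 bp (SD, n = 4) from a summit of Nup107, a nuclear pore gene, at 86.7, 93.6, 99.1 and 76.3. VhaAC39-2 (3R, 23158017 to 23159316) lay 372 ± 48.5 bp from a summit inside unk at 73.8, 56.0, 99.5 and 91.2. VhaPPA1-2 (3R, 14899606 to 14900277) lay 696 ± 34.1 bp from a summit inside CG3817 at 10.5, 88.6, 90.1 and 82.5. The mean percentiles of these 3 summits, 88.9, 80.1 and 67.9, were above the median own-summit mean of the main genes, 66.2. VhaM9.7-a (3L, 4262705 to 4263464) lay 472 ± 42.4 bp from a summit inside CG11586 at 43.9, 72.9, 30.0 and 57.3. Vha68-1 (2L, 13000770 to 13004107), the second copy of catalytic subunit A, was flanked by summits on both sides. The one inside mTor, the kinase that senses nutrients at the lysosome, was at 47.8, 29.3, 86.8 and 96.5, and the one inside Yip1d1 was at 83.8, 9.58, 48.3 and 53.4. The body of Vha68-1 between them held none.

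The 2 paralogs with own summits were Vha100-1 and VhaM9.7-c. Vha100-1 (3R, 29131193 to 29137980), the copy of subunit a that works at synapses, had an own summit near its lower end at 35.6, 24.9, 13.2 and 37.6, a mean of 27.8 ± 11.2 (SD, n = 4). It lay 195 ± 30.0 bp inside the gene, apart from the summit of Alg13 beyond the other end. VhaM9.7-c (3L, 4186018 to 4186865) had summits inside the gene at 35.1, 29.3, 38.4 and 70.5. That gene lies within the spans of CG18675 and Teh2, so the summit lay in 3 genes at once, and Vha100-1 was the 1 paralog called when a summit inside no other gene was asked for. Both own-summit means, 27.8 and 43.3, were below the median of the main genes.

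Within subunits the main copy usually had the own summit. Of 12 subunits with a main gene and at least 1 paralog, the main gene had own summits in more replicates than every paralog in 10. The exceptions were subunit e, where VhaM9.7-b and VhaM9.7-c both had 4 replicates, and subunit a, where Vha100-2 had 2 and Vha100-1 had 4. In both of these subunits the paralog also had the higher mean own-summit percentile. By summits within 1 kb of an end, which include those of neighbours, the main gene led in 5 subunits, tied in 5 and trailed in 2. The trailing genes were Vha68-2 and Vha16-1, each missing from 1 replicate beside a paralog with a neighbour's summit in 4.

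Several copies lie side by side, and for subunits A and c'' the difference between main gene and paralog was seen over short distances. Vha68-3 begins 178 bp above Vha68-2, and all summits of that pair lay inside Vha68-2, between 261 and 509 bp from its lower end, on the side away from Vha68-3. VhaPPA1-2 and VhaPPA1-1 are separated by 2052 bp that hold RpS5b, and the summits within 1 kb of either lay inside VhaPPA1-1 or CG3817, with none inside VhaPPA1-2 or RpS5b. Vha100-4 ends 517 bp below Vha100-2, and no summit lay in it or at that end of Vha100-2. Since Vha100-2 failed the own call, that pair gives no such difference. Vha16-3 and Vha16-2, both paralogs and 985 bp apart, had no summit in either gene or within 1 kb.

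**Figure D3:**
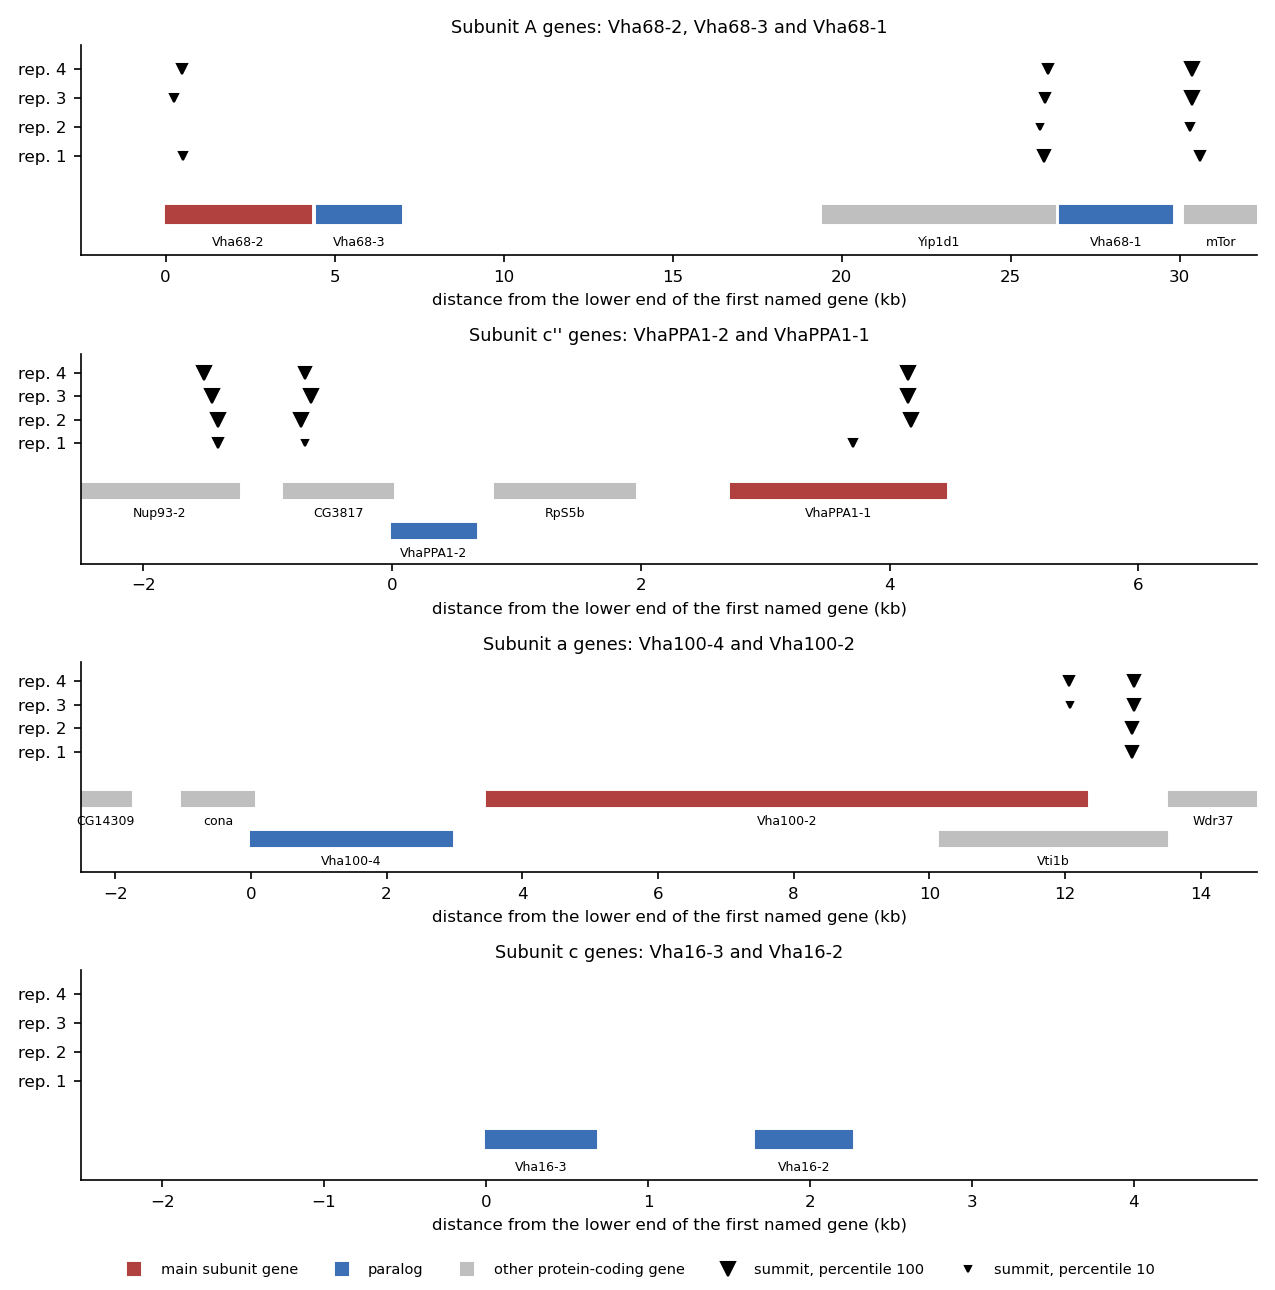
Maps of 4 groups of neighbouring V-ATPase genes, with the distance from the lower end of the first named gene on the horizontal axis (kb) and 1 row per fly replicate. Boxes are gene spans, triangles are summits, and larger triangles have higher percentiles. Summits fall in Vha68-2 and VhaPPA1-1 and not in Vha68-3, VhaPPA1-2, Vha100-4, Vha16-3 or Vha16-2.

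By the rule an own summit lies within 1 kb of a gene end, and 13 of the 25 main genes are at most 2 kb long. Closeness to an end is thus bounded by the rule and by gene length, and no distance over all genes is given beside it. Within these bounds the median distance of the main genes' own summits from the nearer end was 247, 247, 259 and 275 bp in replicates 1 to 4. The mean was 257 ± 13.3 bp (SD, n = 4). Which end is the start could not be read from the gene table, which lacks the strand. Of 17 main genes with an own summit in all 4 replicates, 14 had it at the same end each time. At the 12 main genes longer than 2 kb the ends can be separated, and each had its own summits at 1 end alone. Of these main genes 11 had the own call. Among all 2631 genes of that length with an own call, 98.7% had their own summits at 1 end alone. ATPsynC, ATPsyngamma and ATPsynbeta had their own summits farthest inside, at 666.5 ± 155, 593 ± 93.4 and 574 ± 54.9 bp from the nearer end.

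**Figure D4:**
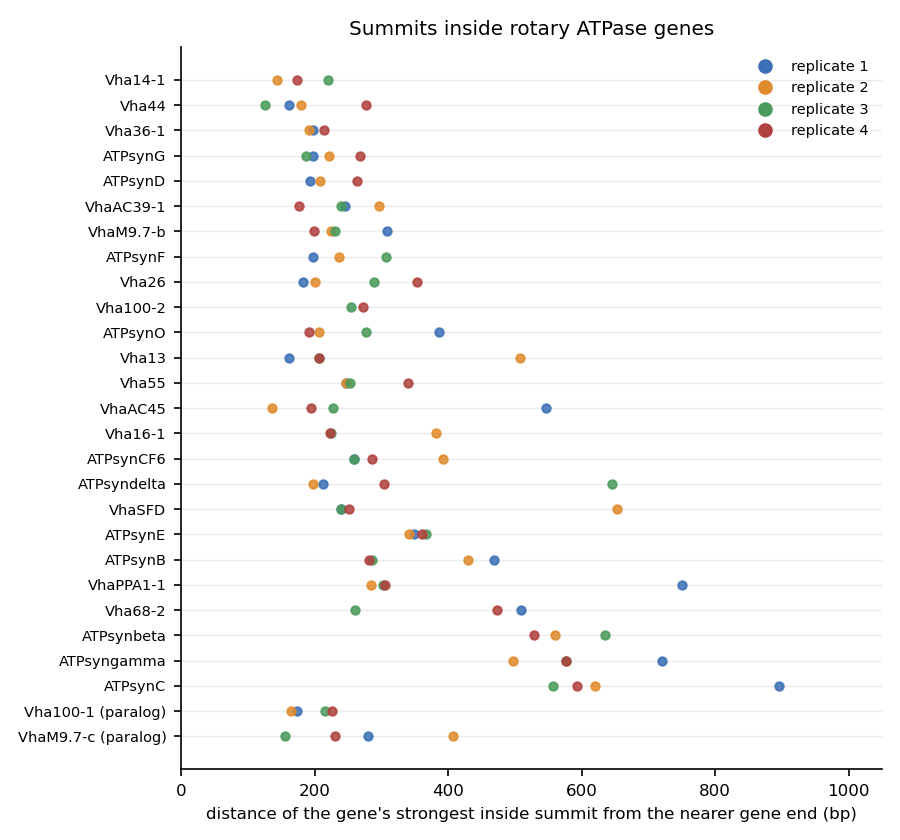
Distance (bp) from the nearer gene end of the strongest summit inside each gene, 1 point per fly replicate, for the 25 main genes and the 2 paralogs with own summits. The replicate medians of the main genes lie between 247 and 275 bp, and ATPsynC, ATPsyngamma and ATPsynbeta have the largest means.

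Gene length differed between the classes, and crowding differed little by distance. The median distance to the nearest other gene end was 229 bp for main genes and 235 bp for paralogs. The median length was 1732 bp for main genes, 1300 bp for paralogs and 2163 bp for all genes. Among genes up to 2 kb long, 13 of 13 main genes and 1 of 16 paralogs had the own call, with a background of 26.05%. Among longer genes it was 11 of 12 main genes and 1 of 7 paralogs, with a background of 35.5%. The classes thus differed in the same direction at both lengths. Another gene end lay within 1 kb, or another gene overlapped, at 25 of 25 main genes, 20 of 23 paralogs and 87.6% of all genes. Summits of a neighbour were more common at the main genes, at 14 of 25 in at least 3 replicates against 7 of 23 paralogs. The strongest summit lay outside the gene in at least 3 replicates at 7 main genes and 6 paralogs. It lay inside in all 4 replicates at 8 main genes and 1 paralog. The same counts over all genes are not given. The part of crowding in the calls was not tested.

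The labelled tissue was set beside defining genes of 6 larval tissues, 3 for each. Of these 18 genes 15 had no summit within 1 kb in any replicate, against a background of 49.9% of all genes. Among the 15 were the muscle genes Mhc, Act57B and Tm2 and the salivary glue genes Sgs3, Sgs7 and Sgs8. The testis genes aly, bam and betaTub85D also had none. The neuronal gene elav had a summit in 2 replicates. Lsp2 (fat body) and Jon65Ai (midgut) were called through summits outside the gene, with a background of 43.9% for calls near an end. None of the 18 had the own call, with a background of 31.1%. A gene used in 1 tissue can thus lack a summit in these lists, and a paralog without one cannot be taken as inactive in its own tissue.

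Genes of the same pathways that the symbol rule leaves out were mostly called. Of 10 such genes 9 were called near an end and 7 had the own call, read against the backgrounds of 43.9% and 31.1%. The alpha subunit gene blw (2R, 22799099 to 22802180), the non-catalytic partner of ATPsynbeta, was at 19.7, 87.0, 94.0 and 98.2, and the epsilon subunit gene sun was at 36.6, 73.0, 69.6 and 73.4. Both were lowest in replicate 1. The ADP/ATP carriers sesB and Ant2 overlap and shared summits at 24.1, 64.8 and 78.5 in replicates 2 to 4. The same summits thus count for both genes in the 9 and in the 7. Of the phosphate carriers, Mpcp2 had own summits at 30.2, 55.9, 11.8 and 75.5, and Mpcp1 was called through CG9143. The V-ATPase assembly gene Rbcn-3A had own summits in all 4 replicates, and a summit inside its neighbour Spx was the higher one in 2. Rbcn-3B had summits inside the gene in replicates 2 and 3, where it overlaps mip130, so they cannot be given to one of the genes. Its summits outside the gene, in replicates 3 and 4, lay inside Edem1 and mip130. Mitf (chromosome 4), the fly relative of TFEB and a regulator of V-ATPase genes, had weak own summits at 6.74, 13.4 and 22.4 in replicates 2 to 4. No summit was found at knon, a testis copy of subunit d. The accessory gene ATP6AP2, listed under its former name VhaM8.9, had own summits at 83.6, 96.7, 91.5 and 99.1, a mean of 92.7 ± 6.87 (SD, n = 4), above the own-summit mean of each of the 48 members. CG5421, which the gene table also calls VhaAC45-2, had no summit.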

How the data were processed

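Peaks were called with MACS2, per the submitters' processing notes, which also name BWA 0.7.17 (alignment software), Picard 2.17.11, SAMtools 1.9, cutadapt 1.16 and FastQC 0.11.7. How MACS2 was set, which build was used and whether the input served as control are not given there. The authors deposited 1 summit list per sample, each with a −log10 score. Whether it stands for a p-value or q-value was not stated.

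Positions are 1-based. Gene names, spans and types came from RefSeq (Release 6 plus ISO1 MT), which carries no strand or sequence, so no sequence is shown. The build was checked: on each arm 57.1% to 88.0% of summits fell within 500 bp of an end of a gene there, and at most 19.6% did when set against the genes of a different arm.

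From the lists, each gene's highest percentile within 1 kb of either end was taken per replicate (absence as 0 in means). Calls need 3 of 4 replicates. The labels call the pools biological replicates, and no position and score recurred between files. The members, classes and lists were chosen with earlier results of these data known, and every member is named. Neighbours were named where they hold a member's summit, and ATP6AP2 and CG5421 were added after seeing the gene table. Listed symbols that the rule did not find (3) were left out. Alternatives changed the distance, the smallest score, the length of the summit lists, the number of replicates and the summits counted. No test across genes was run, and counts stand beside the same count over all genes. The steps were tested on simulated summits. Promoter motifs and protein identity were not run. The software was pandas 2.3.3 and numpy 2.4.6 under Python 3.11.15, with matplotlib 3.10.9 for plots.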

Additional observations from a re-analysis of the deposited data

Results flagged for a closer look

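Each value with 4 replicates was screened for 1 replicate far from the other 3, and 8 of 64 sets of 4 values stood out. The rule flags about 1 in 20 sets of independent, normally distributed values. These percentiles are bounded, absence counts as 0, and near and inside sets can hold the same values. The number flagged therefore cannot be set against that rate. Vha16-1 was at 0 in replicate 1, having no summit there, against 81.3 to 91.1 in the other replicates, both near an end and inside the gene. Inside the gene, Vha36-1 was at 0 in replicate 3 against 88.6 to 95.5, Vha14-1 was at 0 in replicate 1 against 81.9 to 93.8, and ATPsynD was at 0 in replicate 3 against 83.7 to 98.3. Near an end, VhaPPA1-2 was at 10.5 in replicate 1 against 82.5 to 90.1 in the others. Vha100-2 was at 78.4 in replicate 2 against 83.9 to 84.8, and ATPsynCF6 was at 90.4 in replicate 2 against 98.9 to 99.5.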

How the results depend on the processing

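The numbers of called genes were 25 main genes, 8 paralogs and 6107 of all genes. A distance of 250 bp gave 8, 1 and 2628, a window about as wide as the median distance of the main genes' own summits (247 to 275 bp). Summits inside the gene left 2 paralogs. Summits inside no other gene, an alternative chosen after seeing the data, left 23 main genes, 1 paralog and 3871 of all genes. Leaving out each replicate in turn gave 25 main genes and 8 paralogs each time, and 6145 to 6517 of all genes. The other settings (a smallest score of 5, equally long summit lists, 500 bp, 2000 bp, at least 2 or all 4 replicates, whole gene) gave 22 to 25 main genes and 6 to 9 paralogs, while the number over all genes ran from 4693 (all 4 replicates) through 5021 (500 bp) and 5092 (equally long lists) to 6854 (2000 bp). Single calls lost were Vha68-2 with equally long lists, Vha68-2, Vha100-2 and ATPsynbeta (with the paralogs VhaM9.7-a and VhaPPA1-2) at 500 bp, and Vha68-2 and Vha16-1 with all 4 replicates. Gene starts alone could not be searched, since the table has no strand. No paired analysis was possible because the results come from no test between groups. Unknown depth limits every absence.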
